A study of Drosophila melanogaster with 6 samples.

Results

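The genes described here are 73 CR genes of the fruit fly Drosophila melanogaster, nearly all annotated as non-coding, that reached 10 counts only in the libraries numbered 2 of the study. They were taken from the 2021 genes of the count table whose name is CR followed by digits, the FlyBase form for a gene whose transcript was not known to code for protein. A CR gene was chosen when it had at least 10 raw counts in both libraries numbered 2 and fewer than 10 in both libraries numbered 1, and 5 CR genes (CR40677, CR41602, CR40741, CR41609 and CR43459) were left out by the rule. The difference between the library numbers therefore chose the genes, and it is given as a description, with no test.

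RNA came from brains dissected from 5-day-old adult flies of the wild-type Canton-S strain, about 15 brains per sample. Per the methods, the total RNA was split for 2 kinds of library. In polyA enrichment, RNAs with a polyA tail are retained, and in rRNA depletion, DNA probes are hybridized with ribosomal RNA and the hybrids are digested with RNase H. There were 2 brain libraries of each kind, called rRNA-depleted 1 and 2 and polyA-enriched 1 and 2 after their labels, sequenced in reads of 100 bp from both ends with a directional kit. The labels and methods give no difference in treatment, age or strain between numbers 1 and 2. Libraries of the S2 cell line were not used here.

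Library totals were 14295047 and 13821678 counts for rRNA-depleted 1 and polyA-enriched 1, and 12142737 and 11838449 counts for rRNA-depleted 2 and polyA-enriched 2, so the libraries numbered 2 were the shallower. Neuronal markers (elav, nSyb, Syt1, brp) summed to 5494 to 6589 CPM (counts scaled to a library total of 1000000) over the 4 libraries. Glial markers summed to 2437 to 2586 CPM in the libraries numbered 1 and to 1787 to 1789 CPM in those numbered 2. Photoreceptor markers summed to 211 to 312 CPM in the rRNA-depleted and 1746 to 2558 CPM in the polyA-enriched libraries, and fat body markers to 714 to 1311 and 9920 to 12379 CPM. Testis markers, included because many fly lncRNAs are known from testis, summed to 0.42 to 1.16 CPM, with 4 of the 9 at 0 in every library. Muscle markers summed to 4.06 CPM in rRNA-depleted 1 and 10.5 CPM in rRNA-depleted 2, and to 153 and 151 CPM in polyA-enriched 1 and 2. No single gene of these marker lists was over 2-fold higher in the mean CPM of the libraries numbered 2, and the part of cell composition in the values of the CR genes was not tested. In bulk RNA, fewer cells of a type and less RNA per cell cannot be told apart.

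Long non-coding RNAs (lncRNAs) are transcripts without a known protein product, and many of them carry a polyA tail like an mRNA. In a compact genome such as that of the fly, many lncRNA genes lie inside, beside or antisense to protein-coding genes. A gene that lies within an intron of a larger gene is called nested, and the larger gene is its host. For a nested gene on the same strand as its host, the sequence of the small transcript is also part of the unspliced transcript of the host, so a count per gene cannot tell reads of the one from reads of the other.

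Of the 73 genes, 58 were annotated as lncRNAs and 12 as antisense RNAs. CR43428 is now annotated as the protein-coding gene CG43428, and CR42735 and CR45194 had no match, so 71 genes had a position. On the dm6 assembly, 24 lay on chromosome arm 2L, 13 on 2R, 9 on 3L, 18 on 3R, 6 on X and 1 on chromosome 4. None overlapped an annotated transposable element. Their exons summed to 237 to 3175 bp with a median of 618 bp, and 54 of the 71 (76.1%) had a single exon. Among the 199 CR genes with at least 10 counts in all 4 libraries, the median was 1165.5 bp and 43.8% had a single exon.

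Pairs of counts are given throughout with the rRNA-depleted library first. The counts of the 73 genes ranged from 0 to 9 in rRNA-depleted 1 (median 2) and from 0 to 8 in polyA-enriched 1 (median 1). In rRNA-depleted 2 they ranged from 10 to 340 (median 36, or 2.96 CPM), and in polyA-enriched 2 from 10 to 263 (median 27, or 2.28 CPM). Together they summed to 184 and 153 counts in the libraries numbered 1 and to 4080 and 3292 counts in those numbered 2. These are genes of low level, and the sum made up 0.0336% of the counts of rRNA-depleted 2 and 0.0278% of those of polyA-enriched 2. The 5 genes with the most counts held 31.1% and 28.6% of these sums.

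**Figure D1:**
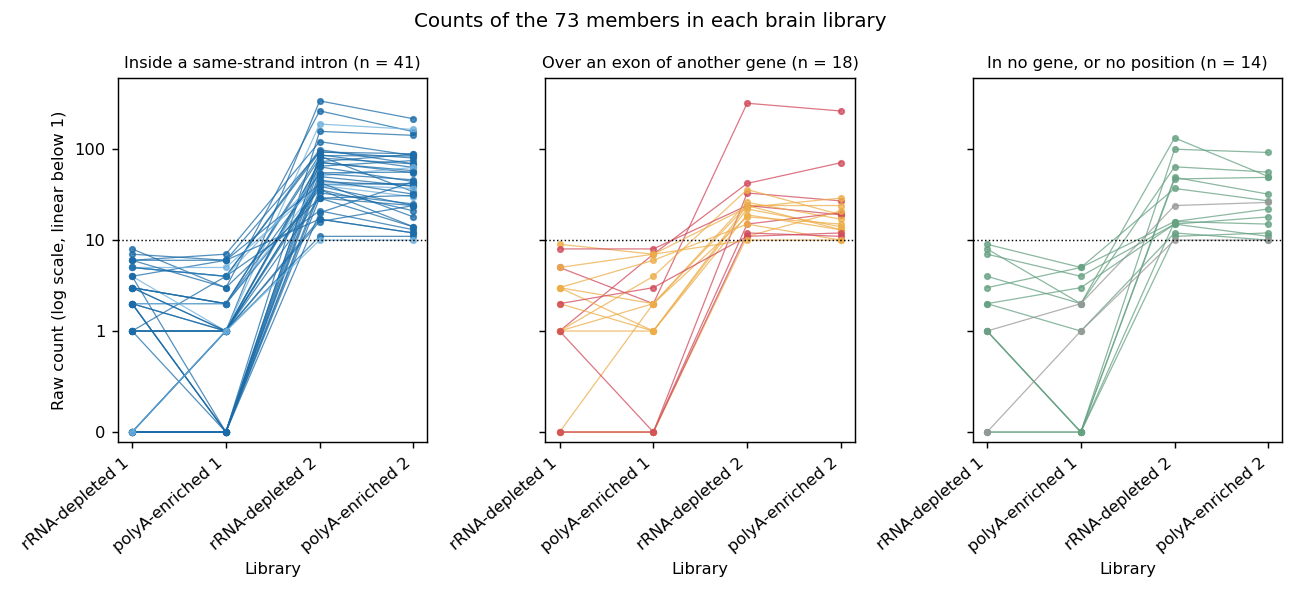
Raw counts of each of the 73 genes in the 4 brain libraries, on a log scale that is linear below 1; each line is 1 gene, split into panels by position, with the lighter shade in the first panel for nested genes that also overlap an exon on the other strand, red and yellow in the middle panel for same-strand and other-strand exons, and grey for genes without a position. The dotted line is the limit of 10 counts in the rule, and every gene lies under it in the libraries numbered 1 and on or above it in those numbered 2.

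Fold changes of the 73 genes between the numbers were computed from the pooled counts of each pair of libraries divided by their pooled totals. The log2 ratios of host genes used the mean CPM of each pair instead. Of the 73 genes, 12 had no count in either library numbered 1, 25 had 1 to 3 counts and 36 had 4 to 16. The ratio ranged from 1.95 to 351 with a median of 21.1 in the 61 genes that had a count. For the 12 genes at 0 the fold was at least 8.99 to at least 49.6, against a floor of 3 counts over the pair. With these bounds, 6 genes were under 4-fold higher in the libraries numbered 2, 13 were 4- to 10-fold higher, 43 were 10- to 50-fold higher and 11 were 50-fold or more higher. The rule could have been met with a fold near 1, and the gene nearest to that was CR44027, antisense to dati, with counts of 5 and 7 in the libraries numbered 1 and 10 and 10 in those numbered 2. Its ratio of 1.95 had a 95% interval of 0.91 to 4.38. All intervals of count ratios given here cover counting error only.

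The genes just inside the lower limit were CR44027, CR43936 and CR45194, each with 10 counts in both libraries numbered 2. CR44042 and CR44321, with 9 counts in rRNA-depleted 2 and 10 in polyA-enriched 2, and CR42858, with 9 in both, lay just outside it. At the upper limit, CR44382 and CR43428 (9 counts each in rRNA-depleted 1) and CR42721 (8 in both libraries numbered 1) were inside, while CR44315, CR44537 and CR45135, each with 9 counts in one library numbered 1 and 10 in the other, were outside.

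The position of the genes was not used by the rule. Of the 71 genes with a position, 41 (57.7%, 95% Wilson interval 46.2 to 68.5%) were wholly contained in an intron of another gene and shared its strand. Of these, 36 overlapped no exon of any gene and 5 also overlapped an exon on the other strand. A further 7 genes overlapped an exon of another gene on the same strand, 11 overlapped only an exon on the other strand, and 12 lay in no other gene. None lay in an intron of a gene on the other strand only. Among CR genes with at least 10 counts in all 4 libraries, 6 of 194 (3.09%, 1.43 to 6.58%) lay in a same-strand intron. Among all CR genes with a position it was 90 of 1967 (4.58%, 3.74 to 5.59%). The Wilson intervals treat genes as independent, although 14 of the 41 nested genes shared a host with another of them.

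**Figure D2:**
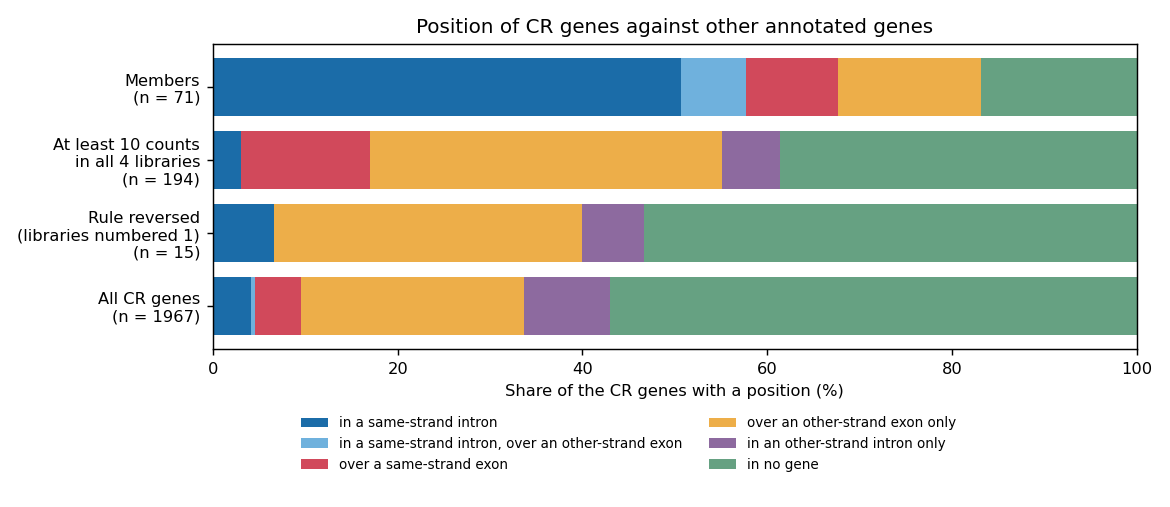
Share (%) of CR genes in each position class, for the 71 chosen genes with a position, the 194 with at least 10 counts in all 4 libraries, the 15 that meet the rule with the numbers reversed and all 1967 of the table. The share in a same-strand intron (both blue shades) is 57.7% in the chosen genes, 3.09% in those with counts in all 4 libraries and 4.58% in all CR genes.

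The same comparison can be read over whole position classes, whose members were not chosen by counts, although the limit of 10 counts is that of the rule. Of the 90 CR genes nested in a same-strand intron, 13 had at least 10 counts in rRNA-depleted 1 and 10 in polyA-enriched 1, against 62 in rRNA-depleted 2 and 54 in polyA-enriched 2. Of the 183 CR genes that lay only in an intron on the other strand, 24 and 21 reached 10 counts in the libraries numbered 1 and 17 and 19 in those numbered 2. For the 1121 CR genes in no other gene it was 109 and 115 against 111 and 117. The 98 CR genes over a same-strand exon were also detected more often under number 2, with 30 and 35 against 43 and 43. Of the 475 over an exon on the other strand only, 89 and 104 were detected against 97 and 103. Both classes on the strand of the other gene had more detected genes in the libraries numbered 2, which were not deeper. The 41 and 7 chosen genes are among them and by the rule reach 10 counts under number 2 only. The rule thus sets part of this difference. Summed CPM of the same-strand exon class was lower under number 2, with 7716 and 7613 against 4893 and 5264. For the 82 nested genes over no exon it was 569 and 625 against 623 and 539, mostly from CR34335. For the 8 nested genes over an exon on the other strand it was 1.89 and 1.81 against 28.2 and 26.9. Over all CR genes, 270 and 290 reached 10 counts in the libraries numbered 1, and 337 and 343 in those numbered 2.

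Of the 90 same-strand nested CR genes, 41 (45.6%) belonged to the 73 genes. The share was 1.60% of the 1877 other CR genes with a position, and it was 0 of the 183 genes in an intron on the other strand, which allows a share of up to 1.64%. Of the 83 same-strand nested genes with any count, 74 had a higher mean CPM in the libraries numbered 2 and 9 a lower one (89.2% higher). Of the 1240 other CR genes with a count, 57.6% were higher. Since 41 of these 74 were chosen for that direction, these shares are a description. The exception with the most counts was CR34335, nested in DIP-alpha, which encodes an immunoglobulin-domain surface protein that binds Dpr proteins, with 7725 and 8270 counts in the libraries numbered 1 and 3877 and 3416 in those numbered 2.

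With bounds in place of the genes at 0, the fold between the numbers had a median of 30.5 (2.62 to 351) in the nested genes and of 12.5 (1.95 to 225) in the 30 others with a position. The ranges overlapped, and since the rule held the counts under number 1 below 10, this fold mainly follows the level under number 2 and is no evidence of a difference between the classes. The nested genes held 2846 of the 4080 counts in rRNA-depleted 2 (69.8%) and 2254 of the 3292 in polyA-enriched 2 (68.5%), but 100 of 184 and 75 of 153 in the libraries numbered 1.

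The 41 nested genes lay in 34 hosts, all of them protein-coding and 9109 to 162060 bp long with a median of 47500 bp. The distance from the nested gene to the nearest exon of its host was 342 to 23736 bp (median 3126 bp), and only 4 of the 41 lay within 1 kb of one. Of the 34 hosts, 6 stood on the list of adhesion and axon guidance genes (Nlg3, beat-Ic, beat-IIIb, beat-Vc, dpr1 and dpr2), 1 on that of RNA-binding proteins (sm), 1 on that of receptors and signalling (RhoGAP92B) and none on those of ion channels or transcription factors. The lists were short, and hosts outside them include pHCl-1, a pH-sensitive chloride channel, TfAP-2 and Ptx1, transcription factors, InR, the insulin receptor, and Ac13E, an adenylyl cyclase.

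CR44901 had the most counts of all in rRNA-depleted 2. It is a single exon of 1226 bp on the minus strand of chromosome 2L (18261073 to 18262298), 8689 bp from the nearest exon of its host CG42750. It had 1 count in each library numbered 1, 340 in rRNA-depleted 2 and 216 in polyA-enriched 2, a ratio of 326 (89.8 to 2698). A second nested gene in the same host, CR44900, had counts of 6, 7, 121 and 85 in rRNA-depleted 1, polyA-enriched 1 and their counterparts numbered 2, a ratio of 18.6 (10.6 to 35.5). The host itself had 3795 and 2472 counts in the libraries numbered 1 and 7781 and 5703 in those numbered 2, a log2 ratio of 1.34. The host had more counts in both libraries numbered 2 than in either numbered 1, and for the nested genes the rule fixes that order.

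CR43828, in an intron of sick, a regulator of the actin cytoskeleton in growing axons, had 8 and 3 counts in the libraries numbered 1 and 264 and 156 in those numbered 2. Its neighbour in that host, CR43827, starts 1037 bp further on and had 2 and 0 counts against 29 and 14. CR43828 is among the longest of the 73 genes (2082 bp). The host had 2602 and 2105 counts against 4039 and 4386, a log2 ratio of 1.07.

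CR44070 lay in an intron of Mmp2, a matrix metalloproteinase, on chromosome 2R (9636996 to 9637673, minus strand). It had 1 and 0 counts in the libraries numbered 1 and 157 and 142 in those numbered 2. It thus had the highest ratio of the 73 genes, 351, although a single count in the denominator left an interval of 62.4 to 13892. Mmp2 was also the host that differed most, with 2508 and 2174 against 6219 and 4940 counts, a log2 ratio of 1.48.

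Other nested genes with many counts lay in hosts with smaller log2 ratios. In an intron of kuz, which encodes an ADAM metalloprotease that acts in Notch signalling, CR44973 had 6 and 6 counts in the libraries numbered 1 and 94 and 80 in those numbered 2, while the log2 ratio of kuz was 0.71. In pHCl-1, which had a log2 ratio of -0.08, CR44050 had 1 and 4 counts against 93 and 89, and CR44051 had 2 and 0 against 33 and 25. CR43787, in an intron of CG13594 (log2 ratio -0.04), had 4 and 1 counts against 189 and 165, and 1711 of its 1952 bp were antisense to an exon of Cyp9c1, a cytochrome P450. The nested genes were chosen for this contrast and the hosts were not, so the values stand side by side and nothing is drawn from the gap between them.

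The remaining hosts with 2 nested genes were beat-Ic, dpr2, CG33144 and Pde1c. In beat-Ic, of the Beaten path family of immunoglobulin-domain axon guidance proteins, CR43825 had 3 and 2 counts in the libraries numbered 1 and 87 and 63 in those numbered 2, and CR44844 had 0 and 1 against 71 and 58. In dpr2, a neuronal surface protein of the Dpr family, CR44492 had 2 and 0 against 50 and 39, and CR44493, only 322 bp away, had 0 and 0 against 36 and 21. Both pairs lay in hosts with small log2 ratios, 0.42 for beat-Ic and 0.11 for dpr2.

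In CG33144, the pair CR44300 and CR44301 were 168 bp apart and had 5 and 4 against 99 and 69 counts, and 3 and 2 against 36 and 14. In Pde1c, a calmodulin-dependent phosphodiesterase, CR45014 had 3 and 1 against 29 and 24 and CR43936 had 0 and 1 against 10 and 10. CR43936 had the lowest level relative to its host of all nested genes.

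**Figure D3:**
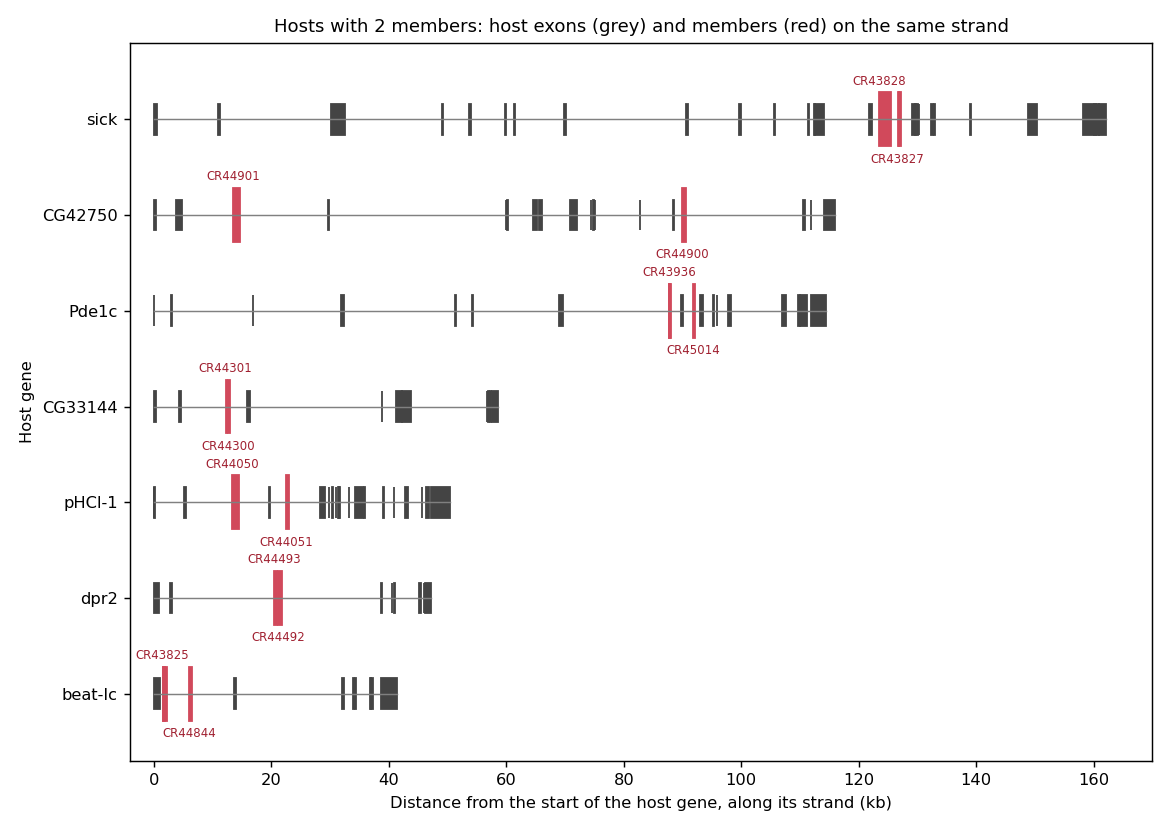
The 7 host genes that hold 2 of the 73 genes each, drawn to scale along their own strand from the host's start (kb); dark blocks are host exons of any transcript and red blocks are the nested genes, widened to at least 0.25 kb so that they can be seen. Every red block lies in an intron, and the pairs in CG33144 and dpr2 lie 168 and 322 bp apart.

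The study named 8 of the 73 genes in its list of top non-coding RNAs, and they are all of its lncRNAs. That list was ranked by log2 fold change and filtered on adjusted p, and the paper reports lncRNAs as enriched in rRNA-depleted samples. In the label comparison given below, DESeq2 called none of the 73 genes, beside 548 of all genes. By the rule, each label holds 1 library with more and 1 with fewer reads of these genes, so this count does not check the list. Among the 8, the log2 ratio of rRNA-depleted 2 to polyA-enriched 2 was lowest in CR44034 (-1.17) and highest in CR44474 (1.27). Of the 8 genes, 7 were nested in a same-strand intron. CR44157 had no count in the libraries numbered 1 and 72 and 55 in those numbered 2, in an intron of smash, a scaffold protein of adherens junctions. In ena, an actin regulator, CR43399 had 0 and 0 against 55 and 56. CR45256 had 0 and 0 against 64 and 44 in hbs, an immunoglobulin-domain adhesion protein. For CR44496 it was 0 and 0 against 46 and 32, in kek2, a transmembrane protein with leucine-rich repeats. By the rule that chose them, CR44157, CR43399, CR45256 and CR44496 had counts in both kinds of library under number 2. They had none in either kind under number 1 at this depth.

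CR44474 in sm, an hnRNP L-like RNA-binding protein, had 0 and 0 against 84 and 34 counts, and CR44034 in InR had 0 and 0 against 20 and 44. CR44070 is described with its host Mmp2. The eighth, CR44279, lay in no gene, 8316 bp from the nearest one, and had 0 and 0 against 49 and 32. Without these 8 genes, 34 of 63 (54.0%) lay in a same-strand intron.

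Most hosts were also higher in the libraries numbered 2. Of the 33 hosts with a row in the table (rsh, known as radish and needed for memory, was not matched), 27 had the higher CPM under number 2, as had 47.8% of the 9737 genes that reached 10 counts in 2 or more libraries. The median log2 ratio of the hosts was 0.56 (from -0.90 in ND-15, a subunit of mitochondrial complex I, to 1.48 in Mmp2), and it was -0.03 over all genes. Over 2-fold higher were 7 of 33 (21.2%), beside 9.59% of all genes, and over 2-fold lower were 0 of 33, beside 6.85%. The hosts were not chosen by their own counts, but the number contrast is that of the rule, so no test was made.

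Set against their hosts, the 40 nested genes with a measured host summed to 1.10 counts per 1000 host counts in rRNA-depleted 1 and 1.00 in polyA-enriched 1. In rRNA-depleted 2 it was 25.0 and in polyA-enriched 2 it was 22.2. The rule chose the nested genes on this contrast and not their hosts, so the choice favoured a larger difference in the nested genes. That difference says nothing of what the host contributed. The plot of member against host gives both values for each gene.

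**Figure D4:**
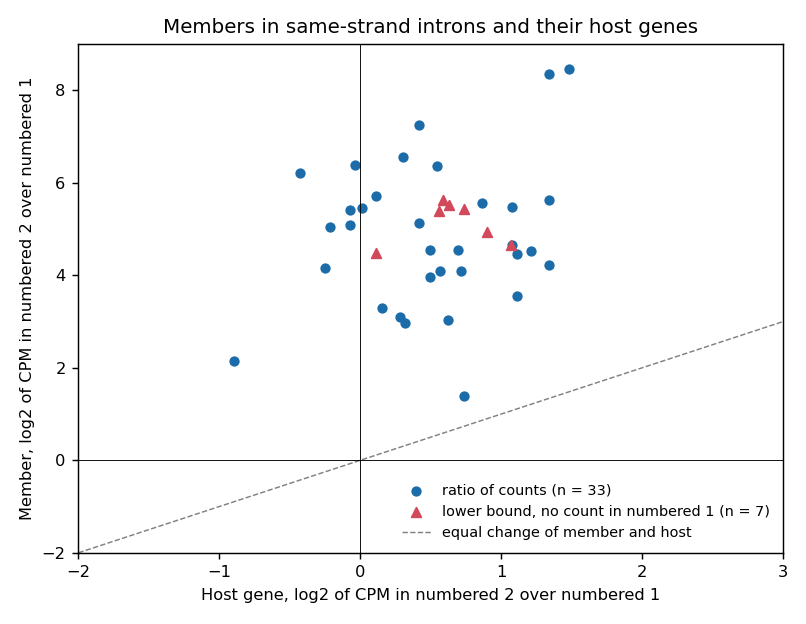
Log2 ratio of the libraries numbered 2 over those numbered 1 for the 40 nested genes (vertical, from pooled counts) against their hosts (horizontal, from mean CPM). Circles are the 33 ratios of counts and triangles the 7 lower bounds for genes with no count in the libraries numbered 1. The dashed line marks equal ratios. The hosts spread from -0.90 to 1.48. The rule chose the nested genes and not their hosts on this contrast. It thus favours points above the dashed line, and nothing is read from their place there.

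Per kilobase of exon, the nested genes had fewer counts than their hosts. These counts can include reads of the unspliced host transcript, so they are not levels of the nested transcript alone. In rRNA-depleted 2 the CPM per kb of a nested gene was a median of 20.6% of that of its host (range 2.31 to 63.7%), and in polyA-enriched 2 it was 20.2% (2.50 to 50.2%). None of the 40 exceeded its host in either library. The highest shares were those of CR45256 in hbs (63.7% and 50.2%) and CR44582 in CG31869 (63.6% and 26.7%), and the lowest that of CR43936 in Pde1c. Across these 40 genes, which share their libraries and in part their hosts, log2 CPM per kb of nested gene and host had a Pearson's r of 0.54 (Spearman's rho 0.47) in rRNA-depleted 2 and 0.42 (0.32) in polyA-enriched 2.

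The 7 genes that overlap a same-strand exon share sequence with another transcript, and how the counting treated reads in 2 genes is not given in the sources used here, so their counts are uncertain. CR44092 was the gene with the highest mean CPM in the libraries numbered 2. It is a single exon of 534 bp on the plus strand of chromosome 3R (24231186 to 24231719), of which 65 bp overlap an exon of mask, a protein of ankyrin repeats and a KH domain. It had 5 and 2 counts in the libraries numbered 1 and 320 and 263 in those numbered 2, a ratio of 97.6 (47.1 to 244), and 179 bp of it are antisense to CR45217.

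MicroRNA precursors lay within exons of 3 genes of this class. CR43857, which holds mir-275, had 1 and 7 counts in the libraries numbered 1 and 42 and 71 in those numbered 2. CR42721, which holds mir-993 and is among the longest of the 73 genes (2266 bp), had 8 and 8 against 24 and 19. CR42651, which holds mir-10, a microRNA of the Hox cluster, had 1 and 0 against 15 and 20. The other 3 of the class shared 619 bp with tweek (CR44392), 883 bp with tio (CR33987) and 1859 bp with Myc (CR44999).

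The 11 genes that overlap only an exon on the other strand had a median ratio of 12.5 between the numbers (1.95 to 25.2) and lower levels, with a median of 1.81 CPM in rRNA-depleted 2 and 1.27 in polyA-enriched 2. The libraries were made with a directional kit, but the strand setting of the counting is not given in the sources used here, so reads of these genes and of their antisense partners cannot be told apart with certainty. The longest of the 73 genes, CR31514 (3175 bp), is antisense to 1334 bp of CG12947 and had 1 and 4 counts in the libraries numbered 1 and 36 and 19 in those numbered 2. The shortest, CR44772 (237 bp), is antisense to 36 bp of Bacc and had 3 and 2 against 18 and 15. CR44382, antisense to CG4199, had 9 and 7 against 23 and 29, close to the upper limit of the rule. Genes of this class made up 15.5% of the members with a position and 38.1% of the CR genes with at least 10 counts in all 4 libraries.

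The 12 genes in no other gene had a median ratio of 15.2 (3.52 to 225). CR44686 on chromosome 3L (20887006 to 20888002, minus strand) had 8 and 2 counts in the libraries numbered 1 and 133 and 50 in those numbered 2. CR45430, also on 3L (22496342 to 22497114, minus strand), had 1 and 0 against 100 and 92, a ratio of 225 (39.9 to 8937). CR45237 had 1 and 0 against 47 and 49. Of the 12, 4 lay within 1 kb of another gene.

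For 3 of these genes, a same-strand gene ended within 1 kb upstream. CR44947 (4 and 2 counts in the libraries numbered 1, 64 and 56 in those numbered 2) lies 680 bp downstream of Ktl, which had 8488 and 6327 against 2690 and 2247 counts and so differed in the other direction. CR43428 (9 and 5 against 37 and 27) lies 116 bp downstream of jef, with 10631 and 7151 against 7795 and 5850. CR45188 (0 and 0 against 11 and 12) lies 501 bp downstream of Cdep, which was higher in the libraries numbered 2, with 9649 and 7798 against 17730 and 16139. The gene upstream thus had more counts in the libraries numbered 1 in 2 of the 3 cases.

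The study compared rRNA depletion with polyA enrichment, and the rule did not use that difference. The ratio of rRNA-depleted 2 to polyA-enriched 2, the pair in which the genes have counts, is 1 library against 1 and has no replicate check. Its log2 value had a median of 0.23 and ranged from -1.17 to 1.37, above 0 in 49 of the 73 genes. It was -0.02 at the median of all genes, of which 48.2% were above 0, and 0.12 at the median of the 199 CR genes with counts in all 4 libraries, of which 123 were above 0. For the summed counts of the 73 genes it was 0.27 (95% exact interval 0.21 to 0.34). For single genes the counts were too low to tell most of them apart: the exact interval lay above 0 in 11, below 0 in 2 and held 0 in 60.

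Among genes with at least 50 counts in the pair, the ratio was highest in CR44686 (133 against 50 counts, log2 1.37, 0.90 to 1.87), CR44301 (36 against 14, 1.33, 0.40 to 2.33), CR44474 (84 against 34, 1.27, 0.68 to 1.89) and CR44582 (43 against 18, 1.22, 0.40 to 2.10). It was lowest in CR44034 (20 against 44 counts, -1.17, -2.01 to -0.38), followed by CR43857 (42 against 71, -0.79, -1.38 to -0.22). For the next, CR44382 and CR44840, the interval held 0. Levels in the pair followed each other, with a Pearson's r of 0.92 between log2 CPM in both libraries (Spearman's rho 0.91, across 73 genes that share these libraries and are not replicates). Nested genes exceeded their host in this ratio in 26 of 40 cases, and the median difference over all 40 was 0.16.

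**Figure D5:**
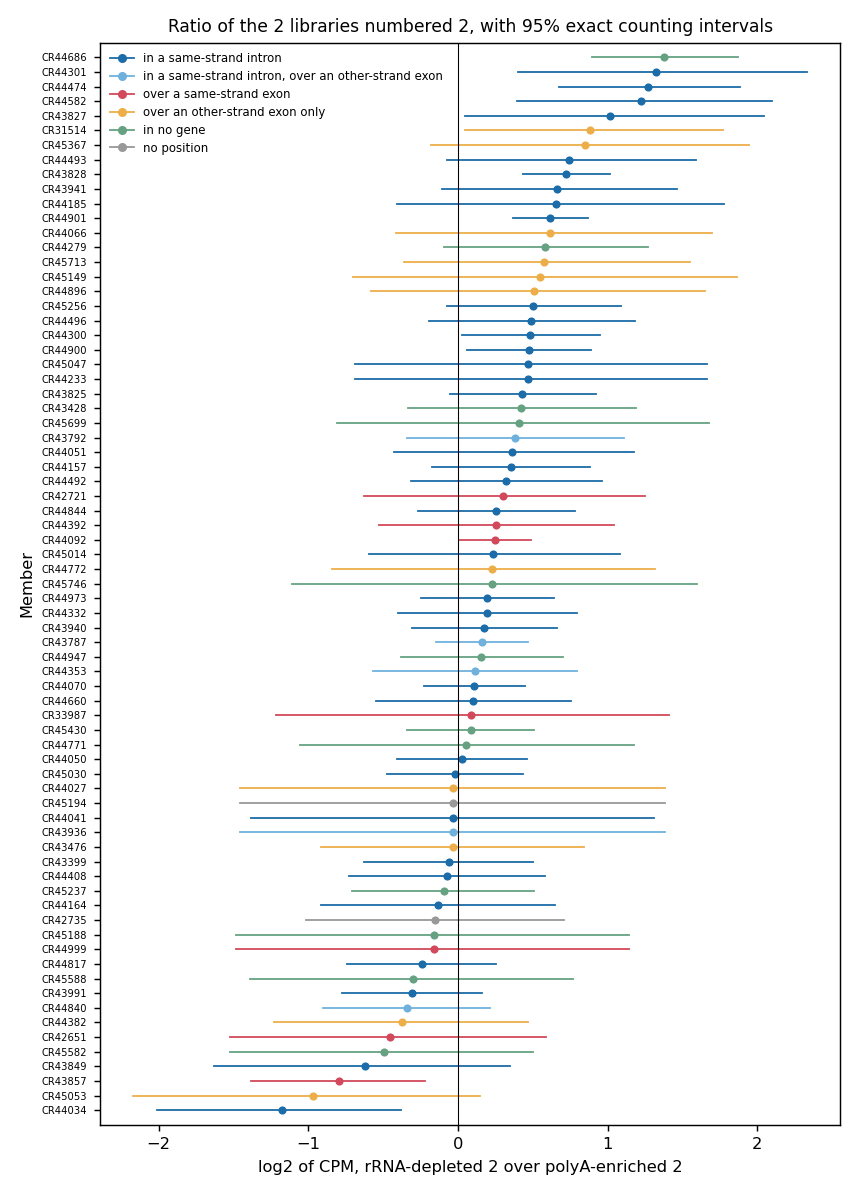
Log2 ratio of CPM in rRNA-depleted 2 over polyA-enriched 2 for each of the 73 genes, sorted, with 95% exact intervals for counting error; colours give the position class. The intervals of 60 genes cross 0, those of 11 lie above and those of 2 below.

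In the comparison of the labels over all 4 libraries with edgeR's quasi-likelihood test, genes were called if the adjusted p was under 0.05 and the absolute log2 fold change exceeded 1. All 73 genes passed the filter of 10 counts in 2 libraries, which they did only through the libraries numbered 2. None was called, beside 0.0% of the 9737 genes tested in each direction. None of the 73 had an unadjusted p under 0.05, beside 1103 of the 9737 genes. DESeq2 called none of the 73, beside 548 of all genes. The rule gives each label 1 library with more and 1 with fewer reads of every chosen gene. The median standard error of the 73 genes was 1.92, so nothing is read from these counts. The median log2 fold change of the 73 genes was 0.29, beside 0.04 over all genes. It was -0.67 without polyA-enriched 1 and 1.21 without rRNA-depleted 1. Leaving out a library numbered 1 leaves that label only its library numbered 2, where the rule set the genes high. The rule thus largely fixes the sign of these values, and they do not check the direction of the median. That direction rests almost wholly on the pair numbered 2, 1 library against 1.

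The methods state that the total RNA was split between the kinds of library. The comparison was therefore also fitted with the library number as a replicate block, which compares rRNA-depleted with polyA-enriched within each number. Photoreceptor, fat body and muscle markers differed strongly between the labels within each number, and whether the RNA of each pair was the same was not tested. The median standard error of the 73 genes was then 0.47, and 3 of them were called higher and 0 lower in the rRNA-depleted libraries, beside 0.349% of all genes called higher and 12.1% called lower. CR44686 had a log2 fold change of 1.50 (SE 0.34, adjusted p = 0.00023), CR44474 of 1.35 (SE 0.42, adjusted p = 0.0086) and CR44582 of 1.32 (SE 0.50, adjusted p = 0.036). Without the block their log2 fold changes were 1.48, 1.36 and 1.32, with standard errors of 1.93, 2.65 and 1.81. CR43828 (0.85, SE 0.26, adjusted p = 0.0069) and CR44901 (0.70, SE 0.25, adjusted p = 0.025) passed the p threshold but not the fold threshold. The called genes rest almost wholly on the pair numbered 2, with 8 and 2, 0 and 0, and 3 and 1 counts in the libraries numbered 1. Their adjusted p-values are therefore in effect those of 1 library against 1 and do not show a difference that holds across replicates. In the fit without the block, leaving out polyA-enriched 1 or rRNA-depleted 1 gave log2 fold changes of 0.52 and 2.42 for CR44686, 0.33 and 2.36 for CR44474, and 0.37 and 2.25 for CR44582. These shifts follow largely from the unequal libraries left in the labels, since the rule set the genes low under number 1. None of the 33 hosts was called in either fit.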

How the data were processed

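Per the labels and the methods, the authors used Trimmomatic for trimming, STAR for alignment to dm6 and featureCounts for counting, and deposited raw counts per gene, without normalization or pooling. The annotation and the strand setting are not given in the sources used here. Of 16729 rows, 4 were left out (Dscam1, para and a row of coordinates after each had no counts), which left 16725 genes. Positions, classes and exons came from the Ensembl annotation of BDGP6.54, which has the coordinates of dm6. Symbols matched directly for 12510 genes, with a class prefix for 1940 and by a single older symbol for 1997, and 278 were not matched. Of the 2016 CR genes left after the 5 named in the rule, 1967 had a position. Sequences and GC content were not analysed here.

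CPM used the total count of each library. The labels were compared with edgeR 4.0.16 in R 4.3.3 (quasi-likelihood test, TMM, at least 10 counts in at least 2 libraries, Benjamini-Hochberg adjustment), with DESeq2 1.42.0 as an alternative, and the standard error is the log2 fold change over the square root of F. The fits were tested on simulated data for this comparison, in which 200 of 200 changed genes of 9603 were recovered and at most 3 others were called. This recovery does not measure power for the chosen genes, whose median standard error without the block was 1.92 in the real libraries. Other steps used Python 3.11.15 with scipy 1.17.1. Same-numbered libraries were taken as paired since the methods state that the total RNA was split and the numbers occur in both labels. Their deviations from the label means correlated with r = 0.902 across genes. Without the block, the p-values set the label difference against the spread between 2 libraries per label. With the block, they set it against how much that difference varied between the 2 pairs of same-numbered libraries.

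The 73 genes, the marker lists and the host lists were chosen with earlier results of these data known. Genes were named by rule: the 10 with the highest mean CPM in the libraries numbered 2, the 4 highest and 4 lowest label ratios, genes called in either fit, those the study lists, those nearest each limit, the 3 longest and 3 shortest, pairs in 1 host, 5 over exons and 5 in no gene. Other genes named were chosen after their values were seen. Alternatives were other normalizations, filters, thresholds and limits of the rule, and leaving out each library; 3 added after seeing the data changed the libraries or the fold the rule reads.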

Additional observations from a re-analysis of the deposited data

How the results depend on the processing

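The number of chosen genes was 80 with a limit of 5 counts, 63 with a limit of 20, 87 with counts scaled to the smallest library and 12 when no count was allowed in the libraries numbered 1. The share in a same-strand intron was 57.7% in all settings of strand, overlap and host class, and 74.4% (32 of 43) with at least 20 counts in the libraries numbered 2. In 3 settings added after seeing the data it was 47.2% of 108 and 44.8% of 105 genes when the rule read only the rRNA-depleted or only the polyA-enriched libraries, and 67.3% of the genes over 10-fold higher. Of the 110 and 107 genes so chosen, 104 and 102 were higher in the library numbered 2 of the label the rule did not read. Both sets hold every gene of the main rule, which sets that direction for them. Same-numbered libraries were also taken as paired, so the unread label is no independent check. By mean CPM over both labels, 89.2% of same-strand nested and 57.6% of other CR genes with a count were higher under number 2. The median label ratio in the pair numbered 2 was 0.23, and 0.32 with TMM scaling.

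In the label comparison, no gene was called with edgeR. The replicate block called 1214 genes and 3 of the 73, DESeq2 548 genes (2 higher, 546 lower) and edgeR without a filter 255 lower, with none of the 73 in either of the last. The block changed no other call of a host or named gene. Leaving out each library gave 0 to 457 calls: 457 without rRNA-depleted 2, 377 without polyA-enriched 2 and 0 without either library numbered 1. The lone library left in a label is there assumed to vary like the others. Without a library numbered 2 the 73 genes did not pass the filter and had no value. Their median log2 fold change was -0.67 without polyA-enriched 1 and 1.21 without rRNA-depleted 1, that of CR43828 -0.17 and 1.79, and that of CR44901 -0.31 and 1.71; the 3 genes called with the block ranged from 0.33 to 2.42. The rule itself moves these values, since it set the genes low under number 1 and high under number 2. With 2 libraries per label and a median of 36 and 27 counts per gene, single genes allowed no finer comparison.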

Other observations

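Genes other than CR genes met the same limits. There were 298 of them, of which 200 were protein-coding, 54 snoRNAs, 21 other non-coding RNAs, 4 snRNAs and 2 pseudogenes, while 17 had no match. Of the 200 protein-coding genes, 125 (62.5%) lay wholly inside an intron of a same-strand gene. Among the 8170 protein-coding genes with at least 10 counts in all 4 libraries it was 139 (1.70%). The share over all protein-coding genes of the count table, which would include those of low level, was not computed. Nested position on the host's strand was thus also frequent among the protein-coding genes that met these limits, and no test was made of it.

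With the numbers reversed, the rule found 15 CR genes, with 12 to 23 counts in rRNA-depleted 1 and 11 to 35 in polyA-enriched 1. Only CR32658, with 23 and 18 against 4 and 2 counts, lay in a same-strand intron, and its host was itself a lncRNA gene. Several same-strand nested CR genes missed the limits because they had 10 or more counts in a library numbered 1 but differed in the same direction. CR44396 in beat-IIIc had 11 and 8 counts in the libraries numbered 1 and 118 and 119 in those numbered 2. CR43845, now annotated as protein-coding, lies in Nmdar1, an NMDA receptor subunit, and had 53 and 48 against 293 and 193. CR44360 in DopEcR, a receptor for dopamine and ecdysteroids, had 12 and 7 against 54 and 70.

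Some neighbours of genes that lie in no host were also higher under number 2, and others, some of them nearer, were not. CG43331, 5863 bp upstream of CR45430, had 4 and 0 counts in the libraries numbered 1 and 105 and 119 in those numbered 2, but CR45431, only 1195 bp from CR45430, had 0 and 1 against 0 and 0. Sfp77F, a seminal fluid protein gene 8265 bp upstream of CR44686, had 10 and 2 against 114 and 28, so that both it and CR44686 were higher in rRNA-depleted 2 than in polyA-enriched 2. CG32432, 1817 bp from CR44686, had 7524 and 5702 against 7868 and 5791. CG10801, within the span of CR44999, had 1 and 4 against 25 and 26.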
